A study of Mus musculus with 4 samples.

Results

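The 10 genes followed here were *Acta2*, *Tagln*, *Myl9*, *Cnn1*, *Des*, *Mcam*, *Rgs5*, *Cspg4*, *Notch3* and *Myh11*, which label contractile myofibroblasts, smooth muscle cells and the pericytes that wrap small vessels. They were taken by name, as the spots whose transcript accession maps to these symbols in RefSeq, and make up 10 of 22911 named genes and 15 of 34173 named spots on the array. All 10 had at least 1 probe. The arrays were made with RNA from subcutaneous *Bcr-Abl*+ tumors, and the comparison of genotypes asks how the stroma of *Sipa1*-/- hosts differs from that of Wt hosts. *Sipa1* encodes a GTPase-activating protein for Rap1.

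Both host groups were C57BL/6Ncr mice of 8 weeks, Wt or *Sipa1* knockout, with 5 mice per genotype. Each mouse received 15000 Wt hematopoietic progenitor cells (HPCs) carrying *Bcr-Abl* and GFP in Matrigel, and the labels give day 12 for the collection of tumors. Mesenchymal stroma cells (MSCs) were sorted as GFP- CD45- Ter119- CD31- cells, a gate set by what the cells lack, and CD8+ T cells as GFP- TCRb+ CD8+ cells. Each of the 4 conditions had 1 one-color Agilent array, and whether it held the pooled RNA of several mice is not given in the sources used here, although the study pooled mice of a group for its qPCR of such MSCs. With 1 array per condition there was no replicate check, no test and no p-value, and the number of arrays limits the precision. Values are spot intensities on the log2 scale minus the 75th percentile of the array, named relative signal below, so that 0 marks the same rank on each array. They set 1 probe against itself on other arrays and say nothing about the amounts of different genes.

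Smooth muscle cells, pericytes and myofibroblasts share a contractile program. Thick filaments of myosin pull on thin filaments of smooth muscle α-actin, and calponin, transgelin and the regulatory light chain tune the pull. Fibroblasts take up part of this program when TGF-β and mechanical tension turn them into myofibroblasts, which are a common component of tumor stroma. Pericytes are told from these cells mainly by membrane and signaling proteins such as NG2 (*Cspg4*), *Notch3*, *Rgs5* and CD146 (*Mcam*), none of which marks pericytes alone. Many contractile genes are bound near their start by serum response factor (SRF) at a short element called the CArG box.

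Upstream sequence is shown for *Myl9*, *Cspg4* and *Rgs5*, the members with the highest genotype ratios in MSCs, to place the CArG box beside those ratios. The stretches come from RefSeq (GRCm38.p6), read 5′ to 3′ on the plus strand and end at the base before the annotated gene start. Capitals mark the CArG box, which was searched on both strands within the 250 bases before the table's transcript start. Only the strict pattern was counted, 10 bases that begin with CC, end with GG and have only A or T between.
*Myl9*, chr2:156775214-156775407: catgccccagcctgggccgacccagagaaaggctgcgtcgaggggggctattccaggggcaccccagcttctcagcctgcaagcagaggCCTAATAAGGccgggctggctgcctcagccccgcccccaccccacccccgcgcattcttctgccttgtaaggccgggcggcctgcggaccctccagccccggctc
*Cspg4*, chr9:56864854-56865103: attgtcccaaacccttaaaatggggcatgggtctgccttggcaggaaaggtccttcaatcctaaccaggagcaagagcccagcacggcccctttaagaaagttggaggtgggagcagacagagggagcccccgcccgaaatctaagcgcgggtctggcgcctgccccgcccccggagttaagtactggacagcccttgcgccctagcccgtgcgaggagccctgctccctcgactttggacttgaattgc
*Rgs5*, chr1:169655251-169655500: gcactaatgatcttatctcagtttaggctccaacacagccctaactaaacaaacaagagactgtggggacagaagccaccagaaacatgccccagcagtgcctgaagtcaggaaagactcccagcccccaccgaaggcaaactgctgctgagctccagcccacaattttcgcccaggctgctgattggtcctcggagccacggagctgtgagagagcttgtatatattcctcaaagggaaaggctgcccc
The *Myl9* box lies 105 to 96 bases before the annotated gene start, and 161 to 152 bases before the transcript start from which the promoter table counts. The table of promoters held 8 of the 10 members, without *Tagln* and *Myh11*. *Myl9* was the member with a match to the strict pattern, which is 12.5% of the 8. Of all 32851 promoters in the table, 482 (1.47%) held a match. Near matches, such as ccctatatgg upstream of *Acta2*, were not counted, so a member without a match may still hold a box. *Cspg4* and *Rgs5* had no match. A match is a description of letters in this window, and the part of the CArG box in the ratios was not tested.

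In MSCs, the *Sipa1*-/- array had a higher signal than the Wt array for 8 of the 10 genes, where 51.8% of all 15298 measured genes were higher. The difference was at least 2-fold for 4 of 10 (*Myl9*, *Cspg4*, *Rgs5* and *Myh11*), against 19.3% of all measured genes, and no member was 2-fold lower, against 11.3%. *Myh11* passed by little, and the count was 2 to 4 over the ways of processing given below. *Mcam* and *Cnn1* were lower by less than 2-fold. The median log2 ratio of the members was 0.64, and that of all measured genes 0.04. The ratios spread from -0.63 for *Mcam* to 1.60 for *Myl9*, so the 10 genes did not move as a block.

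**Figure D1:**
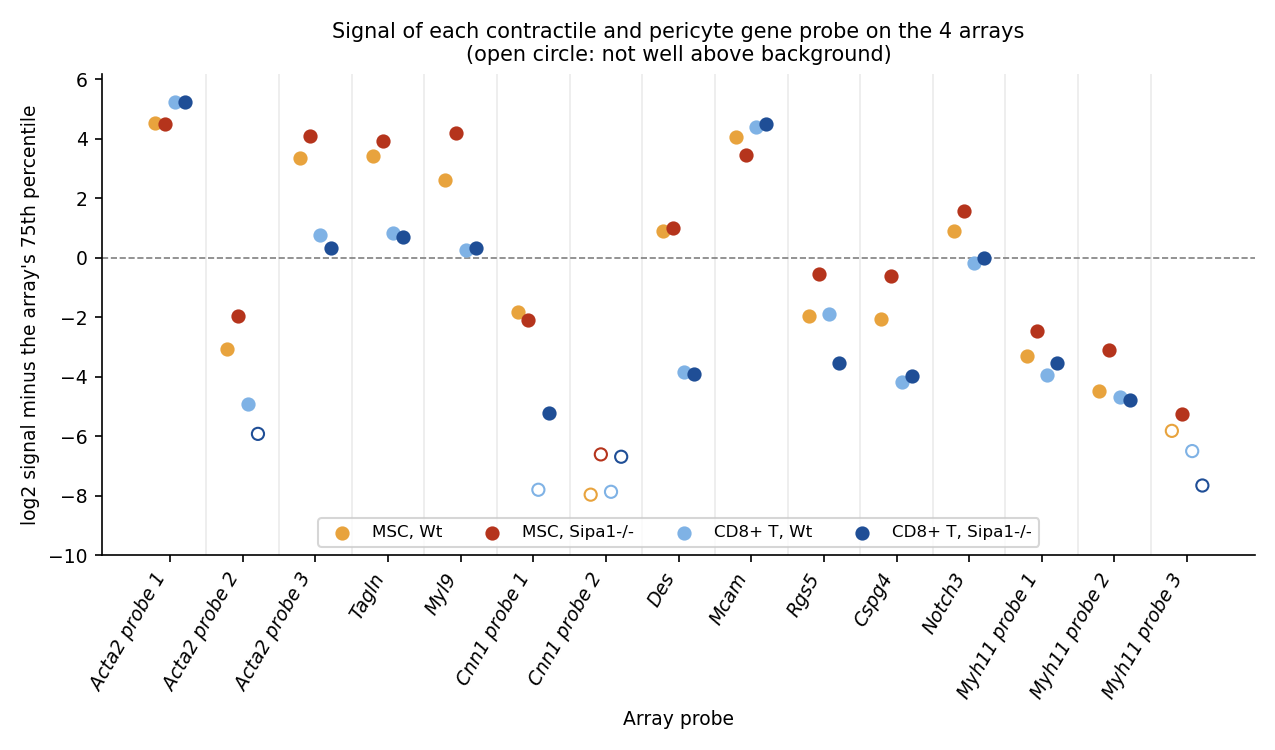
Relative signal (log2 minus the 75th percentile of the array, y axis) of the 15 probes of the 10 genes (x axis) on the 4 arrays, 1 point per array, with open circles where the spot was not well above background. Orange and red points are MSCs and blue points CD8+ T cells, and *Des* separates the cell types by 4.76 in Wt hosts while the CD8+ T cell points of *Acta2* probe 1 and *Mcam* lie above their MSC points.

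Before the members, the arrays themselves were set against their labels. Between 60.3% and 65.3% of spots were well above background and 0 were saturated. Both *Sipa1* probes were lower on the *Sipa1*-/- array of each cell type, at 3.78 against 5.03 and 1.46 against 3.05 in MSCs. All 12 fibroblast markers were well above background on both MSC arrays, and *Cd8b1* was at 7.29 and 7.41 on the CD8+ T cell arrays against -2.56 and -1.26 on the MSC arrays. The Wt MSC array also held RNA of B-lineage cells, and 11 of 11 measured B-lineage markers were lower by 2-fold or more in *Sipa1*-/- MSCs, with the log2 of their summed signal at 9.42 and 5.39. *Vpreb1*, a subunit of the pre-B receptor, was at 7.57 and 3.45. Pan-leukocyte markers went the same way, with the log2 of the summed signal at 7.14 and 4.79. Such sums took all probes of a gene, whatever their flags, and are ruled by the brightest genes. Of these markers 8 of 10 were at least 2-fold lower, against 11.3% of all measured genes. Of 10 measured fibroblast markers, 6 were at least 2-fold higher in *Sipa1*-/- MSCs, against 19.3% of all measured genes, and 0 lower. Their median log2 ratio was 1.35, and the log2 of the signal summed over all 12 was 10.06 and 10.80. The part of these differences in the MSC ratios below was not tested, and in such bulk samples fewer cells of a type and less RNA per cell cannot be told apart.

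The regulatory light chain and the heavy chain of smooth muscle myosin had gene means more than 2-fold higher on the *Sipa1*-/- MSC array. The heavy chain passed 2-fold by little and was under it with most other ways of processing. *Myl9* (chr2:156775408-156781657), whose phosphorylation switches smooth muscle myosin on, was at 2.61 in Wt MSCs, 4.20 in *Sipa1*-/- MSCs, 0.27 in Wt CD8+ T cells and 0.33 in *Sipa1*-/- CD8+ T cells. The MSC pair differed by 1.60 ± 0.20 (3.03-fold), where the error is that of the spots by the scanner software and leaves out the spread between mice. The CD8+ T cell pair differed by 0.06, so that the genotypes stood apart on the MSC arrays and together on the CD8+ T cell arrays. *Myl9* was at the 91.3rd percentile of the genotype ratios of all measured genes in MSCs.

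*Myh11* (chr16:14194527-14292188), the heavy chain found in differentiated smooth muscle, had 3 probes with weak signals. The first was at -3.29 and -2.47 in Wt and *Sipa1*-/- MSCs and at -3.93 and -3.54 in the CD8+ T cells. The second was at -4.46 and -3.10 in MSCs and at -4.69 and -4.78 in CD8+ T cells. The third was well above background only on the *Sipa1*-/- MSC array, at -5.24, which made it at least 1.49-fold higher than in Wt. The probes had MSC log2 ratios of 0.81 and 1.36, and their mean, 1.09 (2.13-fold), passed 2-fold by little. With another background correction, normexp with an offset of 50, the ratio was 0.46. The *Sipa1*-/- MSC array was the highest of the 4 for all 3 probes.

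The pericyte genes *Cspg4* and *Rgs5* had MSC ratios nearly as high as *Myl9*. *Cspg4* (chr9:56865104-56899870) encodes NG2, a membrane proteoglycan on pericytes of sprouting vessels, and was at -2.06 in Wt MSCs, -0.61 in *Sipa1*-/- MSCs, and -4.19 and -3.99 in Wt and *Sipa1*-/- CD8+ T cells. Both MSC arrays were above both CD8+ T cell arrays, and the *Sipa1*-/- MSC array was the highest. Its MSC log2 ratio was 1.45 ± 0.21 (2.72-fold) and its CD8+ T cell ratio 0.20 ± 0.26. Under normexp the MSC ratio was 0.97, just under 2-fold.

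*Rgs5* (chr1:169655501-169695813), a regulator of G-protein signaling that is enriched in pericytes, was the member that passed 2-fold in opposite directions in the 2 cell types. Genotype ratios of unlike sign that did not pass 2-fold in both also belonged to *Acta2*, *Tagln*, *Des* and *Mcam*. It was at -1.94 in Wt MSCs, -0.56 in *Sipa1*-/- MSCs, -1.89 in Wt CD8+ T cells and -3.53 in *Sipa1*-/- CD8+ T cells. The Wt arrays of both cell types had nearly the same signal, and the *Sipa1*-/- arrays lay on either side of it. The log2 ratio was 1.39 ± 0.21 in MSCs (2.61-fold higher) and -1.64 ± 0.22 in CD8+ T cells (3.11-fold lower). Among CD8+ T cell ratios this was at the 0.53rd percentile of all measured genes. The value rests on 1 probe, and no test of this opposition was possible with 1 array per condition.

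*Notch3* (chr17:32120820-32166896), the Notch receptor of mural cells, was at 0.89 and 1.56 in Wt and *Sipa1*-/- MSCs and at -0.16 and -0.01 in the CD8+ T cells. Its MSC log2 ratio was 0.67 (1.59-fold). *Mcam* (chr9:44134658-44142727) encodes CD146, an adhesion molecule that pericytes share with endothelial cells and some lymphocytes, and was at 4.07 and 3.45 in MSCs and at 4.39 and 4.50 in CD8+ T cells. It was the member lowest in *Sipa1*-/- against Wt MSCs, by a log2 ratio of -0.63 (1.54-fold lower), and the highest 2 of its 4 values were on the CD8+ T cell arrays. Of 10 measured endothelial markers in MSCs, 3 were 2-fold or more above their Wt signal in *Sipa1*-/-, against 19.3% of all measured genes. These were *Kdr* at a log2 ratio of 1.71, *Tek* at 1.53 and *Robo4* at 1.44. As far below were 2, against 11.3%, *Erg* at -3.83 and *Pecam1*, the gene of the CD31 gate, which was at -1.47 and -2.96. The log2 of the summed signal was 3.35 and 2.42, and the brightest in Wt MSCs were *Egfl7* (2.36 and 1.50) and *Erg* (1.89 and -1.95). Endothelial markers thus went in both directions. The part of endothelial cells in the *Mcam* ratio was not tested.

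*Tagln* and *Cnn1*, which act on the thin filament, stayed within 2-fold between the genotypes in MSCs. *Tagln* (chr9:45929628-45936058), the actin-binding protein transgelin, was at 3.42 in Wt and 3.93 in *Sipa1*-/- MSCs and at 0.82 and 0.71 in the CD8+ T cells. The MSC log2 ratio was 0.51 ± 0.20 (1.42-fold). Both MSC values were well above both CD8+ T cell values. *Cnn1* (chr9:22099221-22109221), calponin, which restrains actin-activated myosin, went slightly the other way, at -1.82 in Wt and -2.10 in *Sipa1*-/- MSCs with a log2 ratio of -0.27 ± 0.21. With no flags, which adds a dim second probe, this ratio was 0.54. The gene was not well above background in Wt CD8+ T cells and was at -5.22 in *Sipa1*-/- CD8+ T cells, at least 1.27-fold higher. The second *Cnn1* probe was not well above background on any array.

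*Des* (chr1:75360292-75368579), desmin, the intermediate filament of muscle and of many pericytes, differed between genotypes by less than the error of the spots. It was at 0.92 and 1.02 in Wt and *Sipa1*-/- MSCs and at -3.84 and -3.92 in the CD8+ T cells, with log2 ratios of 0.10 ± 0.20 and -0.08 ± 0.25, signs that turned under other scalings. Desmin is also abundant in skeletal muscle, whose markers were present on the MSC arrays. The log2 of their summed signal was 6.33 and 7.09 in MSCs against 1.83 and 2.20 in CD8+ T cells. *Acta1*, skeletal α-actin, was at 4.78 and 5.38 in MSCs. Of 14 measured skeletal muscle markers, 12 were higher in *Sipa1*-/- MSCs, against 51.8% of all measured genes. The difference was at least 2-fold for 3 of them, against 19.3%, and the median log2 ratio was 0.60. The part of muscle RNA in the *Des* signal was not tested.

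**Figure D2:**
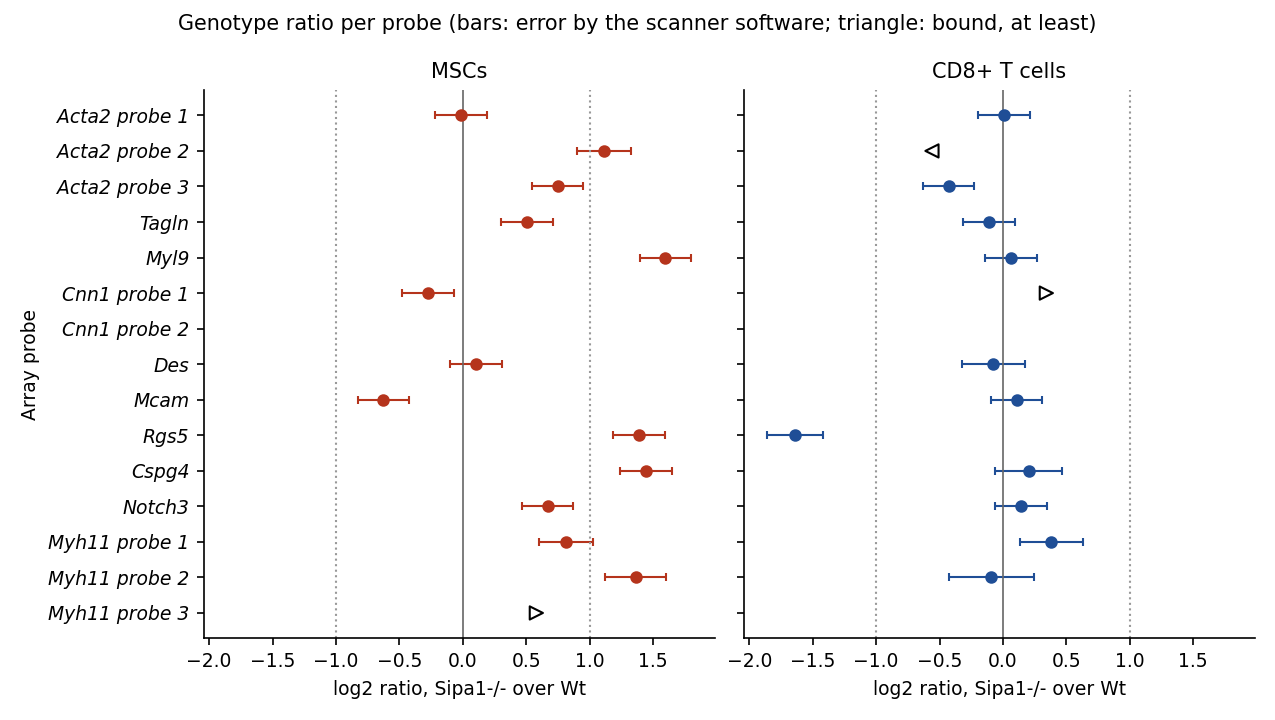
Log2 ratio of *Sipa1*-/- over Wt (x axis) for each probe (y axis) in MSCs, left, and CD8+ T cells, right, with bars for the error of the spots by the scanner software, triangles for bounds and dotted lines at 2-fold. In MSCs *Myl9* (1.60), *Cspg4* (1.45) and *Rgs5* (1.39) lie farthest past the right line, which *Myh11* probe 2 (1.36) and *Acta2* probe 2 (1.11) also pass, and in CD8+ T cells *Rgs5* (-1.64) lies alone past the left one.

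*Acta2* (chr19:34240336-34255585), smooth muscle α-actin, the usual label of myofibroblasts, was measured by 3 probes that disagreed. Probe 1 (A_51_P450957) was at 4.53 and 4.51 in Wt and *Sipa1*-/- MSCs and at 5.23 and 5.24 in the CD8+ T cells. Probe 2 (A_52_P210078) was at -3.08 and -1.97 in MSCs and at -4.93 in Wt CD8+ T cells, and was not well above background in *Sipa1*-/- CD8+ T cells. Probe 3 (A_52_P420504) was at 3.35 and 4.10 in MSCs and at 0.77 and 0.34 in CD8+ T cells. Thus probe 1 was level between genotypes and higher in T cells, whereas probes 2 and 3 were higher in MSCs and highest in *Sipa1*-/- MSCs.

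The genotype log2 ratio in MSCs was -0.01 for probe 1, 1.11 ± 0.21 for probe 2 and 0.75 ± 0.20 for probe 3. The CD8+ T cell ratio was 0.01 for probe 1 and -0.43 for probe 3, and probe 2 gave a bound of at least 1.47-fold lower in *Sipa1*-/-. The gene mean in MSCs was 0.62 over the 3 probes and 0.93 without probe 1, a setting chosen after seeing the data. Neither mean reached 2-fold. The direction of the *Acta2* difference between cell types turned with the probe, as described below.

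The actins are closely related genes, so each actin probe was set beside the others by its pattern over the 4 arrays. The distance used was the root mean square difference of log2 values, each probe centered on its own mean. Probe 1 was 0.0946 from the *Actb* probe and 0.181 to 0.254 from the 3 *Actg1* probes, the genes of the cytoplasmic actins that every cell makes. The *Actg1* probe at 0.254 did not pass the flags on any of the 4 arrays. Probe 1 was 0.325 from *Actg2*, and 1.88 and 1.97 from the other *Acta2* probes. Probes 2 and 3 were 0.272 apart. Distances to probes of genes other than actins were not computed, so closeness by this measure is not shown to be particular to actins. *Tagln2*, not an actin, also had signals slightly higher in CD8+ T cells. Its probes were at 6.64, 6.57, 7.02 and 7.06, and at 3.11, 2.85, 3.46 and 3.48, in Wt and *Sipa1*-/- MSCs and then CD8+ T cells. The sequences of the probes were not used here, so whether probe 1 also binds other actin transcripts was not tested, and values of *Acta2* that include it are uncertain.

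**Figure D3:**
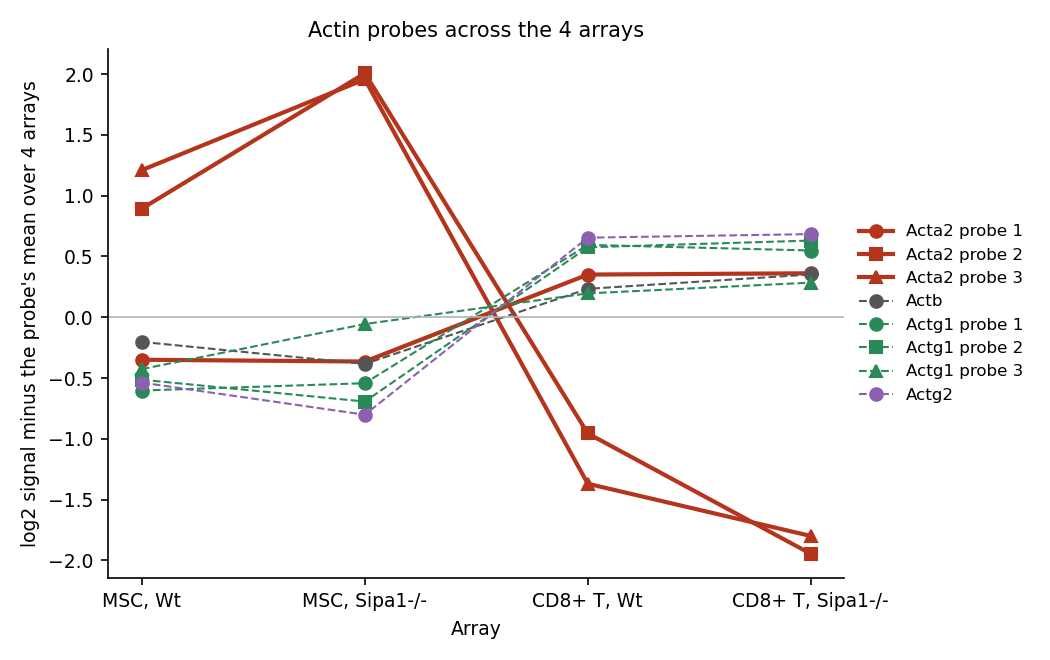
Relative signal of *Acta2*, *Actb*, *Actg1* and *Actg2* probes, each minus its own mean over the 4 arrays (log2, y axis), on each array (x axis), with lines joining the points of 1 probe as a guide only. *Acta2* probe 1 runs with *Actb*, at a distance of 0.0946, while *Acta2* probes 2 and 3 run together, the point of probe 2 in *Sipa1*-/- CD8+ T cells being not well above background. *Actg1* probe 2 did not pass the flags on any array.

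The paralogs of the members served as a second reading of each family. Of 22 measured paralogs, 6 were at least 2-fold higher in *Sipa1*-/- MSCs (*Rgs4*, *Synm*, *Cnn3*, *Notch4*, *Notch2* and *Rgs16*), against 19.3% of all measured genes. At least 2-fold lower was 1 (*Rgs2*), against 11.3%, and the median log2 ratio was 0.56. The count of higher paralogs was thus not far from the share of all genes. *Rgs4*, also enriched in pericytes, had a ratio of 2.10, whereas *Rgs2*, another member of the family, went from 4.44 to 2.11, a ratio of -2.33. *Cnn3*, the calponin of non-muscle cells, had 1.45 where *Cnn1* had -0.27, and *Cnn2* had 0.58. *Synm* (synemin), an intermediate filament partner of desmin, had 1.45, *Nes* (nestin) 0.90 and *Vim* (vimentin) 0.69, each above the 0.10 of *Des*. The non-muscle myosins were closer to 0, with *Myh10* at 0.46, *Myh9* at 0.28 and *Myh14* at 0.53, below the 1.09 of *Myh11*. The light chains *Myl12a* and *Myl12b* had 0.37 and 0.10 against 1.60 for *Myl9*, and *Tagln2* had -0.17 against 0.51 for *Tagln*. Among the other actins, *Actc1* had 0.70, *Acta1* 0.60, *Actg1* 0.22, *Actb* -0.18 and *Actg2* -0.26, and among the other Notch receptors *Notch4* had 1.27, *Notch2* 1.23 and *Notch1* 0.35.

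On the CD8+ T cell arrays the members differed less by genotype than on the MSC arrays. Of 9 measured members, 0 were at least 2-fold higher in *Sipa1*-/-, against 2.66% of 14339 measured genes, and 1 (*Rgs5*) was at least 2-fold lower, against 1.4%. *Cnn1* had only a bound. The median log2 ratio was 0.06 against -0.02 for all measured genes, and 5 of 9 were above 0, against 46.1%. Apart from *Rgs5*, the ratios lay between -0.21 (*Acta2*) and 0.20 (*Cspg4*). All 12 fibroblast markers were well above background in both CD8+ T cell sorts, with 9 of 12 at least 2-fold higher in *Sipa1*-/- and *Col1a2* at 4.24 and 5.77, whereas 8 of 10 granulocyte markers were at least 2-fold lower, *S100a9* being at 8.38 and 7.33. The part of these cells in the signals of the members was not tested.

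The comparison of cell types within a genotype asks which members mark the stromal sort. These comparisons share their arrays with those above and are not independent of them. In Wt hosts, 6 of 9 measured members were at least 2-fold higher in MSCs than in CD8+ T cells, against 17.3% of 14225 genes, and 0 were at least 2-fold lower, against 12.8%. In *Sipa1*-/- hosts, 9 of 10 were higher, against 21.9% of 14300 genes, and 1 (*Mcam*) was lower, against 18.7%. Above 0 were 7 of 9 members in Wt hosts, against 46.6% of all measured genes, and 9 of 10 in *Sipa1*-/- hosts, against 42.9%. The median log2 ratio of the members was 1.24 in Wt and 3.05 in *Sipa1*-/- hosts, and that of all measured genes -0.06 and -0.18. The Wt median leaves out *Cnn1*, which the other includes, and is the value of *Acta2*, whose probes disagreed. Without *Acta2* probe 1 it was 2.13. Over the settings used, the median lay between 0.92 and 2.13 in Wt and between 1.66 and 3.57 in *Sipa1*-/- hosts.

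Among the measured ratios that of *Des* was the largest, with 27.1-fold higher signal in Wt and 30.7-fold higher signal in *Sipa1*-/- MSCs. *Tagln* was 6.04-fold and 9.30-fold higher, *Myl9* 5.05-fold and 14.7-fold, *Cspg4* 4.37-fold and 10.4-fold, and *Notch3* 2.07-fold and 2.97-fold. *Cnn1*, which had only a bound in Wt hosts, was at least 13.4-fold higher there and 8.72-fold higher in *Sipa1*-/- MSCs, the latter value being a log2 ratio of 3.12 that was 1.00 under normexp. *Myh11* differed by a log2 ratio of 0.43 in Wt and 1.37 in *Sipa1*-/- hosts. *Rgs5* differed by -0.05 in Wt and 2.97 in *Sipa1*-/- hosts, and *Mcam* by -0.32 and -1.05. In Wt hosts the series matrix turned both signs, to 0.40 for *Rgs5* and 0.13 for *Mcam*. For *Acta2*, probe 3 was higher in MSCs by 2.58 and 3.76 and probe 2 by 1.85 in Wt and at least 11.5-fold in *Sipa1*-/- hosts, whereas probe 1 was lower by -0.70 and -0.73. The gene means, 1.24 and 1.52, therefore joined opposite directions.

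The members also differed among themselves in their pattern over the 4 arrays. Patterns were means over all probes of a gene, whatever their flags, and so include the dim probes of *Cnn1* and *Myh11*. Measured as the root mean square distance from the median pattern of the 10, *Tagln* was at 0.397 and *Cspg4* at 0.402, while *Des*, at 1.37, and *Mcam*, at 1.51, were the farthest. *Acta2* was the nearest at 0.232 with its 3 probes, but without probe 1 it was at 0.368, farther than *Tagln* (0.271) and *Cspg4* (0.292), with *Des* and *Mcam* still the farthest. The *Des* values split by cell type with no genotype difference, and those of *Mcam* had the reverse order. The 5 other genes with the pattern closest to that median, of 14288 candidates, were *Noxo1* (0.0803), *Tiam2* (0.0846), *Tlcd1* (0.0893), *Fam83g* (0.0954) and *Atg4c* (0.0959). These 5 were not sought again without *Acta2* probe 1. With 4 arrays, a likeness of pattern says only that these values lie close.

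Other genes of the contractile and pericyte programs were read in the same way, from lists that share no gene with the 10. Beside the counts here and below, 19.3% of all measured genes were at least 2-fold higher in *Sipa1*-/- MSCs and 11.3% lower. For CD8+ T cells the shares were 2.66% and 1.4%. Of 23 measured smooth muscle genes, 10 were at least 2-fold higher in *Sipa1*-/- MSCs and 0 lower, with a median log2 ratio of 0.96. *Itga8*, an integrin of smooth muscle and mesangial cells, went from -5.23 to -1.95, a ratio of 3.28. *Aoc3*, a vascular amine oxidase, had 2.37, *Ednra*, the endothelin receptor, 2.03, and *Mylk*, the kinase that phosphorylates the myosin light chain, 1.92. Of 18 measured in CD8+ T cells, 2 were at least 2-fold higher (*Aoc3* at 1.17 and *Ednra* at 1.06), 0 were lower, and the median was 0.10.

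Of 19 measured other pericyte genes, 15 were at least 2-fold higher in *Sipa1*-/- MSCs and 0 lower, with a median of 1.62 that lay above the 0.64 of the 10 members. *Gucy1a1* and *Gucy1b1*, the subunits of the nitric oxide receptor, had ratios of 2.61 and 2.32, *Ndufa4l2*, a mitochondrial protein of hypoxic cells and pericytes, 2.56, and the matrix protein *Postn* 2.54. *Heyl*, a Notch target of mural cells, was the 1 measured gene of the list below 0, at -0.59, and was picked out after its value was seen. The CD8+ T cell arrays had 3 of 12 measured genes at least 2-fold higher (*Postn* at 2.08, *Ndufa4l2* at 1.86 and *Pdgfrb* at 1.68). The 2 that were at least 2-fold lower there, *Steap4* at -1.67 and *Kcnj8* at -1.04, are named beside *Rgs5* after their values were seen. In MSCs *Steap4* had 0.23 and *Kcnj8*, a potassium channel subunit of pericytes, 1.22. Fibroblast markers were at least 2-fold higher for 6 of 10 measured in MSCs, with a median of 1.35. In CD8+ T cells 9 of 12 were, with a median of 1.57. Their part in the ratios of this list was not tested.

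The regulators upstream of the contractile genes were uneven. Among 9 measured genes of the SRF and myocardin group, 3 were at least 2-fold higher in *Sipa1*-/- MSCs (*Klf4* at 1.84, *Fhl2* at 1.61 and *Tead3* at 1.40) and 0 lower, with a median of 0.66. *Tead1* was at 0.99. *Srf* itself had -0.04 and its cofactors *Mrtfa* and *Mrtfb* -0.05 and 0.40, and *Myocd* was not measured on both MSC arrays. On the CD8+ T cell arrays 0 of 8 passed 2-fold in either direction, and the median was 0.17.

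TGF-β ligands, receptors and targets of myofibroblasts had 16 of 22 measured genes at least 2-fold higher in *Sipa1*-/- MSCs and 1 as far lower, with a median of 1.58. The collagen chain *Col8a1* had 2.83, the crosslinking enzyme *Lox* 2.65, the ligand *Tgfb3* 2.63 and *Postn*, also in the pericyte list, 2.54. The lower gene was the ligand *Tgfb1*, at -2.12. Of 21 measured in CD8+ T cells, 9 were at least 2-fold higher, with *Col8a1* at 2.65, *Lox* at 2.28 and *Tgfb3* at 1.14, and the median was 0.40. Genes of this list thus differed by genotype on the CD8+ T cell arrays too, where of 9 measured members only *Rgs5* passed 2-fold. In the same sort 9 of 12 fibroblast markers were 2-fold or more higher, with a median of 1.57, and their part in this list was not tested.

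The Notch pathway, which in mural cells acts through *Notch3* and the ligand *Jag1*, had 5 of 12 measured genes at least 2-fold higher in *Sipa1*-/- MSCs. These were the target *Hey1* at 1.38, *Notch4* at 1.27, *Jag1* at 1.27, *Notch2* at 1.23 and the DNA-binding effector *Rbpj* at 1.05. The signals of *Hey1* were weak, at -4.28 and -2.90. The targets *Hes1* at 0.29 and *Heyl* at -0.59, named after their values were seen, did not pass 2-fold. *Lfng*, a glycosyltransferase that modifies Notch receptors, was at least 2-fold lower, from -0.34 to -2.81, a ratio of -2.47. The median was 0.32. Among 10 measured in CD8+ T cells, 0 passed 2-fold in either direction, and the median was 0.02.

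**Figure D4:**
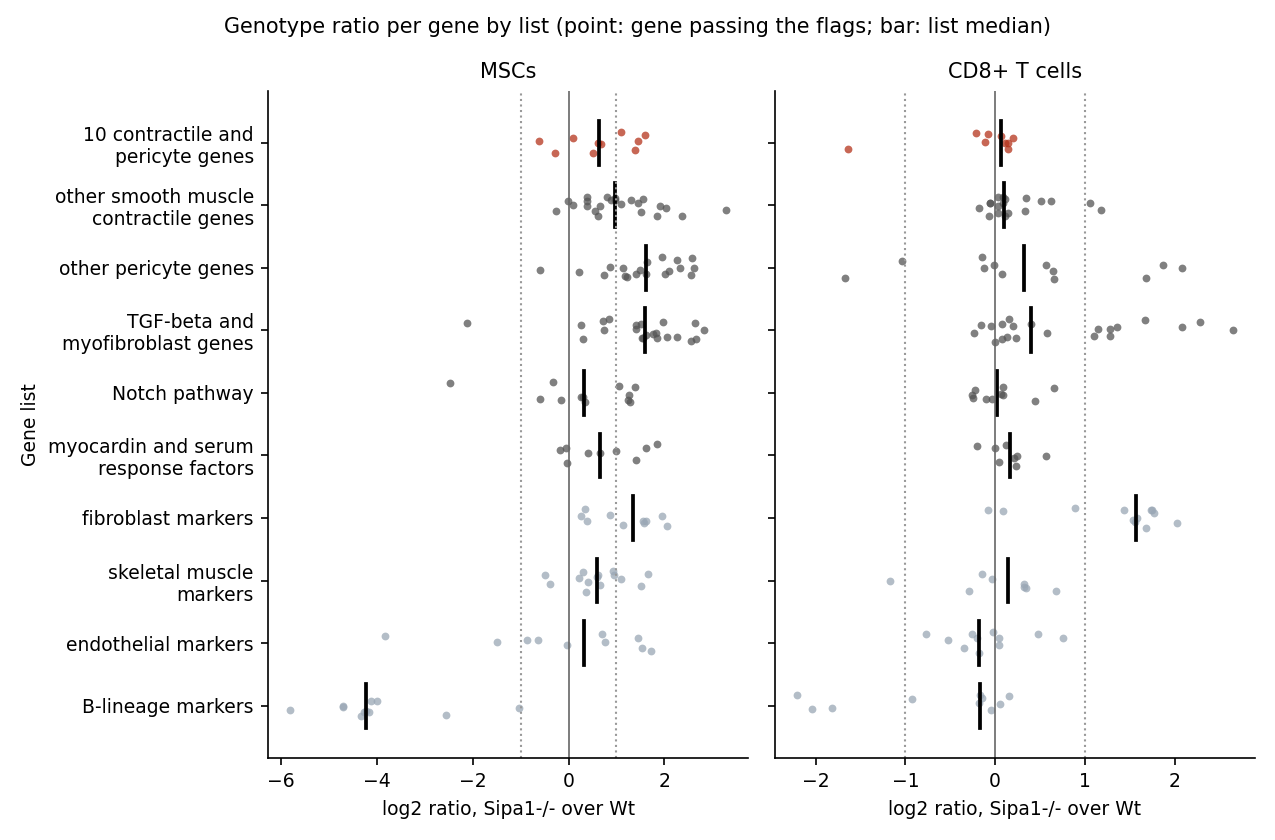
Log2 ratio of *Sipa1*-/- over Wt (x axis, with its own range in each panel) for the measured genes of each list (y axis) in MSCs, left, and CD8+ T cells, right, 1 point per gene and a black bar at the list median. In MSCs the 10 members have a median of 0.64, below the 1.62 of the other pericyte genes, and the B-lineage markers lie to the left with a median of -4.22.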

How the data were processed

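The 4 samples, MSCs and CD8+ T cells of Wt and *Sipa1*-/- hosts, were each labeled in one color and run on the same Agilent slide. The deposited scanner values are spot intensities that the authors' Feature Extraction software had corrected for background, without normalization between arrays. The submitters' processing notes name version 9.1 of that software and the file headers 12.0.3.1. The authors' series matrix holds the same intensity values multiplied by 1 constant per array.

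From the log2 of each processed signal the array's own 75th percentile was subtracted, computed over 59305 non-control spots. A probe counted as measured in a pair with the flags for saturation and non-uniformity at 0 and those for a signal over background at 1, on each array of the pair. Spots, then probes of a gene, were averaged on the log2 scale. Accessions matched to RefSeq (GRCm38.p6) named 57.6% of spots. With 1 array per condition, log2 ratios were compared with a threshold of 1, without tests. For a probe not well above background on 1 array of a pair, the fold is a bound against the higher of its own signal there and the lowest signal well above background on that array. The error shown is that of the software's error model, about 10.0% of a bright spot. Among probes printed on 10 spots, the median SD was 0.040 to 0.044, which covers spot noise only.

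The members, the 7 lists of program genes and the 11 of cell type markers were chosen with earlier results of these data known. The result of 1 program list is not reported here. Named are all members and their measured paralogs, *Sipa1*, the 4 genes of each list with the largest MSC ratio, and the 5 genes with the nearest pattern. Other genes named (regulators such as *Srf*, cell type markers, and genes of counts of 5 or fewer) were picked after their values were seen. Other settings were normexp (limma), the brightest probe of a gene, the series matrix, quantile normalization, a shift by the median, spots kept despite saturation, and flags required on 1 array or on none. Calculations on simulated data were checked first. R 4.3.3 with limma 3.58.1 and Python 3.11.15 with pandas 2.3.3, numpy 2.4.6, matplotlib 3.10.9 and scipy 1.17.1 were used.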

Additional observations from a re-analysis of the deposited data

Results flagged for a closer look

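*Rgs5* is given here because its genotype ratio passed 2-fold in opposite directions in the 2 cell types, as that of no other measured member did. Its log2 ratio of *Sipa1*-/- over Wt was 1.39 in MSCs and -1.64 in CD8+ T cells, a difference of 3.02 between the ratios, from 1 array per condition, and this difference was not tested. The gene has 1 probe, which was well above background on all 4 arrays, at -1.94, -0.56, -1.89 and -3.53 in Wt MSCs, *Sipa1*-/- MSCs, Wt CD8+ T cells and *Sipa1*-/- CD8+ T cells. Under normexp the ratio in CD8+ T cells was -0.86, with the same sign.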

How the results depend on the processing

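Each value rests on 1 array per condition, and the errors shown cover spots, not mice. No paired analysis was possible because only 1 array was made per condition, so no replicate could be left out either. Under normexp, the members at least 2-fold higher in *Sipa1*-/- MSCs numbered 2 instead of 4 (*Cspg4* at 0.97 and *Myh11* at 0.46), those higher in MSCs than CD8+ T cells of Wt hosts 3 instead of 6, and those 2-fold lower in *Sipa1*-/- CD8+ T cells 0 instead of 1 (*Rgs5* at -0.86). With flags on 1 array and with no flags, 1 member (*Cnn1*) was 2-fold higher in *Sipa1*-/- CD8+ T cells instead of 0. With the brightest probe of each gene, *Acta2* turned from higher to lower in MSCs than CD8+ T cells, at -0.70 in Wt and -0.73 in *Sipa1*-/- hosts. The causes of these changes were not tested.

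*Myh11* was also under 2-fold in MSCs with median shift (0.95), the flags on 1 array or none (0.92), the brightest probe (0.81) and quantile normalization (1.00). The median of the members lay between 0.49 and 0.85 for MSCs. For CD8+ T cells it lay between -0.09 and 0.19, and was below 0 with median shift and with no flags. Saturated spots kept changed no value. Of the values for single genes and medians, 176 were identical to those reported, many because the setting could not change them, 107 stayed within the spot error, 93 moved further and 2 that were past 2-fold reversed, both of *Acta2*. Ratios within 2-fold changed sign for *Cnn1* and *Des* in MSCs, for *Tagln*, *Myl9*, *Des*, *Mcam*, *Notch3* and *Myh11* in CD8+ T cells, and for *Acta2* in both. Leaving out *Acta2* probe 1, chosen after seeing the data, is among these settings.

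Scaling shifted all genes together. The median of all measured genes was 0.04 for MSCs and -0.02 for CD8+ T cells, then -0.10 and -0.17 with median shift, and 0.25 and 0.11 with the series matrix. Of genes past 2-fold, 63.1% were higher in *Sipa1*-/- MSCs, 54.1% with median shift and 74.1% with the series matrix. The same shares were 65.5%, 52.5% and 76.3% in CD8+ T cells, and 52.4% with normexp. For MSCs over CD8+ T cells they were 57.4%, 45.5% and 76.6% in Wt and 54.0%, 42.9% and 76.3% in *Sipa1*-/- hosts. In MSCs, 2958 genes were higher and 1733 lower, but 1828 and 1190 with normexp. In CD8+ T cells the 381 and 201 genes became 108 and 98 with normexp, 685 and 371 with flags on 1 array, and 1059 and 633 with no flags. For MSCs over CD8+ T cells of Wt hosts, 2457 higher genes became 3898 with flags on 1 array and 4185 with no flags, and 1821 lower ones 1082 with the series matrix. In *Sipa1*-/- hosts 3131 became 4739 and 5019, and 2671 became 1357.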

Other observations

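The other cell types that the MSC gate could hold were read from marker lists. Beside these counts, 19.3% of all measured genes were at least 2-fold higher in *Sipa1*-/- MSCs and 11.3% lower. Of 8 measured megakaryocyte and platelet markers, 2 were at least 2-fold higher in *Sipa1*-/- MSCs and 0 lower, with a median log2 ratio of 0.37. Schwann cell markers gave 2 of 5 (median 0.50), adipocyte markers 1 of 3 (median 0.68) and keratinocyte markers 1 of 6 (median 0.68), with 0 lower in each list. These counts leave out markers that did not pass the flags on both MSC arrays. Well above background on the Wt and *Sipa1*-/- MSC arrays were 3 and 6 adipocyte markers and 5 and 7 Schwann cell markers. For keratinocyte markers these numbers were 6 and 6, and for megakaryocyte and platelet markers 9 and 8. T cell markers gave 4 of 9 higher (*Cd3d*, *Cd3g*, *Cd8b1* and *Cd28*) and 3 lower (*Cd2*, *Zap70* and *Lck*), with a median of 0.69. The log2 of their summed signal was nevertheless 4.29 in Wt and 2.08 in *Sipa1*-/- MSCs. The brightest of them in Wt MSCs was *Cd2*, at 4.08 in Wt and 0.56 in *Sipa1*-/- MSCs. Granulocyte markers gave 1 of 10 higher and 0 lower in MSCs, with a median of 0.23. On the CD8+ T cell arrays, 3 of 10 measured B-lineage markers were at least 2-fold lower in *Sipa1*-/-, against 1.4% of all measured genes. Their median was -0.17.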
